A study of Mus musculus with 24 samples.

Results

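The genes described here are the 4 mouse pyruvate dehydrogenase kinases, Pdk1, Pdk2, Pdk3 and Pdk4, and Glul, which encodes glutamine synthetase. They were chosen by name, as metabolic genes of the glucocorticoid response together with the paralogs of one of them, and are 5 of the 47480 genes in the count table. RNA came from wild-type mouse embryonic fibroblasts in 24 libraries, 3 for each of 8 groups. Every group combined a small interfering RNA (a control, siCTRL, or siCop1, named for the ubiquitin ligase Cop1), a compound (the vehicle DMSO or KL001, a small molecule known to stabilise the clock repressors called cryptochromes), and either no further agent or Dexa, written as the labels give it. The groups are therefore siCTRL DMSO, siCTRL KL001, siCop1 DMSO and siCop1 KL001, each without and with Dexa. The sources used here do not give doses, exposure times or the origin of the cells. The labels do not say that replicates came from separate cultures, so p-values measure the spread between these libraries, which may be technical.

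Pyruvate dehydrogenase turns pyruvate into acetyl-CoA in mitochondria, and the 4 kinases phosphorylate its E1 alpha subunit, which switches the complex off. Pdk4 is the member best known for induction by fasting, glucocorticoids, FoxO factors and PPARs in muscle, heart and liver, Pdk1 is a classical target of hypoxia-inducible factor, Pdk2 is widely expressed, and Pdk3 is known from testis and tumour cells. Glutamine synthetase joins ammonia to glutamate to make glutamine, and its gene is a long-known glucocorticoid target in muscle and glia.

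In GRCm38 (GENCODE vM21) all 5 are protein-coding genes on different chromosomes: Pdk1 at chr2:71873224-71903858 on the plus strand, Pdk2 at chr11:95026258-95041354 on the minus strand, Pdk3 at chrX:93764607-93832201 on the minus strand, Pdk4 at chr6:5483351-5496309 on the minus strand, and Glul at chr1:153899944-153909723 on the plus strand. The annotation places Teddm2 on the strand opposite to Glul, overlapping it by 285 bases, and that gene had 0 to 11 counts per library. The antisense gene Gm11513 overlaps Pdk2 and had 0 counts in every library.

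Pdk4 and Glul, which moved together with Dexa, and Pdk2, the kinase called with KL001 in siCTRL with Dexa, are shown by the 250 bases before their RefSeq start sites (build GRCm38.p6), 5′ to 3′ on the strand of the gene. Capitals mark the CCAAT box, read on both strands (CCAAT, or ATTGG on the opposite strand), in Pdk4 (chr6:5496279-5496528, minus strand) and Glul (chr1:153899679-153899928, plus strand). In Pdk2 (chr11:95041372-95041621, minus strand) they mark the E-box, CACGTG, which reads the same on both strands and is the element bound by the clock activators that cryptochromes repress.
Pdk4: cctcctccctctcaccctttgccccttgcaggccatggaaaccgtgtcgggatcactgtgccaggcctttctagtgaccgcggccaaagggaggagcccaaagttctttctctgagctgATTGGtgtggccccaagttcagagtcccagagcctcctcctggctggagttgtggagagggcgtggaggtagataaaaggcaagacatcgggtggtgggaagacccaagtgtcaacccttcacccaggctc
Glul: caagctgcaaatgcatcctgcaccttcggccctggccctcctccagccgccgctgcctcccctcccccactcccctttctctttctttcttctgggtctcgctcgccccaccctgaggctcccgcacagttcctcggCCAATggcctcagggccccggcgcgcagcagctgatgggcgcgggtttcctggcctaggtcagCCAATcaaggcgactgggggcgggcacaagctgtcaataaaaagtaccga
Pdk2: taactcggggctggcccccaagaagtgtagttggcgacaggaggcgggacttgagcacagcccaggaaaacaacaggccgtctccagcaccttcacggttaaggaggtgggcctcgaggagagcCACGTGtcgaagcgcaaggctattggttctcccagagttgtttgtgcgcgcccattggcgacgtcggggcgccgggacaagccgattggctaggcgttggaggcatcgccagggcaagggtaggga
Windows of 300 bases (250 before and 50 after the start) were searched on both strands in all 32851 RefSeq promoter entries, and all 5 genes matched an entry by symbol. The palindromic glucocorticoid response element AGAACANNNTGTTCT was in none of the 5 genes' windows and in 0.00913% of all windows. Its arm AGAACA, which the palindrome contains, was in 19% of all windows and, among the 5 genes, in 1 of the 2 windows of Pdk1 only, with 2 matches. A CCAAT box was in 37.4% of all windows, with 1 match in Pdk4 at 131 bases upstream, 2 in Glul at 113 and 50 bases upstream, 3 in the first of the 2 Pdk2 windows and 1 in Pdk3. The E-box was in 7.15% of all windows and, of the 5 genes, in that Pdk2 window only, 126 bases upstream. Neither TATAAA (13.6% of windows) nor the FoxO element GTAAACA (3.65%) had a match in any of the 5 genes' windows. These matches describe letters in short windows and say nothing of whether a factor binds there or elsewhere.

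Library totals ran from 21409988 to 27875023 counts (median 25337292). Rfwd2, the older symbol for Cop1, was at 24.99 to 29.7 CPM (read counts relative to the TMM-scaled library size) in the 12 siCTRL libraries and at 4.33 to 5.79 in the 12 siCop1 libraries. Of 10 fibroblast markers, 9 averaged at least 1 CPM, and the 10 summed to 35183 to 50924 CPM in each library. Within that list the group means of Dcn were 1.72 to 3.70 CPM and those of Lum 0.293 to 1.09 CPM. By the same cut of 1 CPM the count was 5 of 8 for heart muscle, 3 of 8 for skeletal muscle and 1 of 7 for adipocyte markers. It was 3 of 6 for glia, 2 of 6 for macrophage, 0 of 5 for endothelial and 4 of 5 for epithelial markers, so this count alone does not separate the lists. The glucocorticoid targets Fkbp5, Tsc22d3 and Per1 rose with Dexa in all 4 backgrounds, with log2 fold changes of 2.22 to 4.33. Summed over 8 heart muscle markers, the level was 19.3 to 62.5 CPM in the 3 siCTRL DMSO libraries without Dexa, 93.4, 85.9 and 23.5 CPM in replicate 2 of siCTRL DMSO Dexa, siCTRL KL001 and siCTRL KL001 Dexa, and 2.69 to 4.94 CPM in every siCop1 library. Of 7 adipocyte markers only Fabp4 passed the count filter, and its mean was 17.5 CPM in siCTRL DMSO and 55.5 CPM with Dexa, while Adipoq, Plin1, Cidec, Lep, Cfd and Retn were at or near 0 throughout. Sums over the skeletal muscle, glial, macrophage, endothelial and epithelial lists stayed at or below 19.1 CPM in each library. Because the samples are bulk cultures, fewer cells of a type and less RNA per cell cannot be told apart.

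Dexa raised Pdk4 10.2-fold to 13.3-fold and Glul 3.39-fold to 5.56-fold, while no change was called for Pdk1, Pdk2 or Pdk3. All 5 genes passed the filter on low counts. In each of the 4 backgrounds 2 of the 5 genes were called, both higher, against 26.8% of the 14772 tested genes called in either direction in siCTRL DMSO, 26.8% in siCTRL KL001, 23.7% in siCop1 DMSO and 24.5% in siCop1 KL001. A gene was called at an adjusted p below 0.05 in edgeR's quasi-likelihood F test, with Benjamini-Hochberg adjustment over all tested genes.

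**Figure D1:**
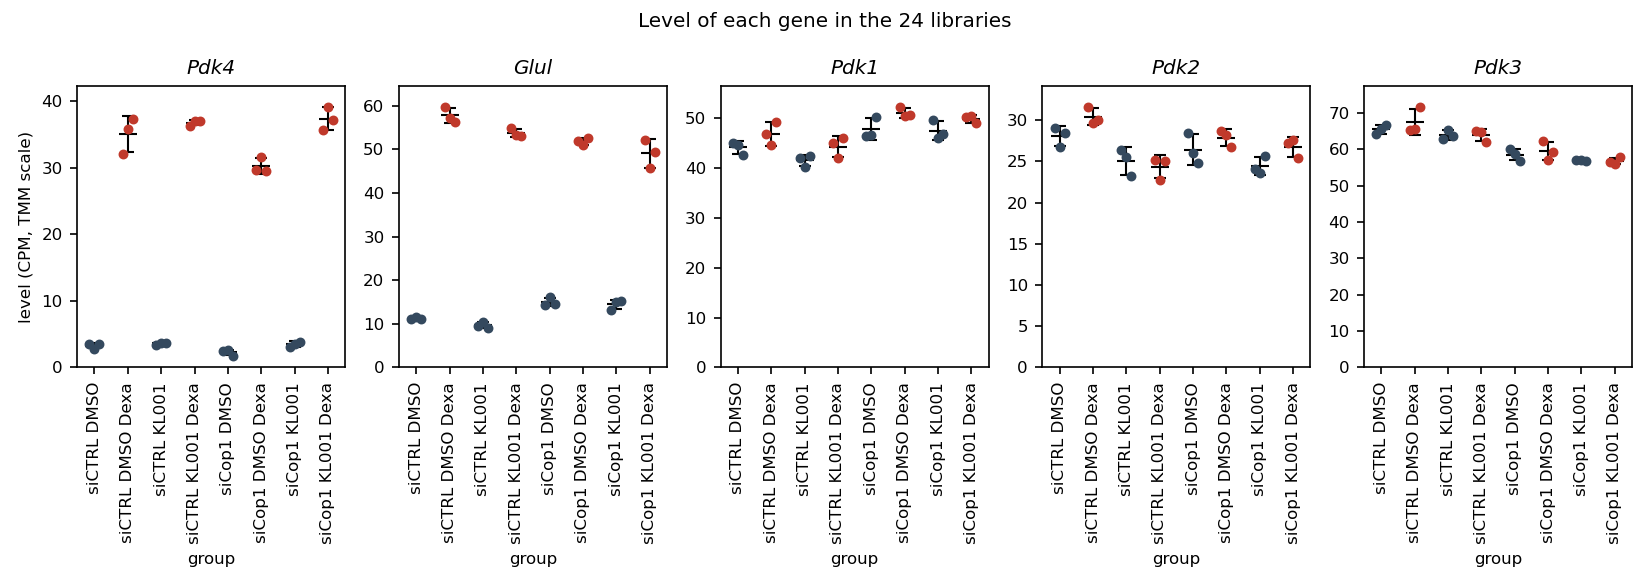
Level of each gene in CPM (TMM scale, axis from 0) in every library of the 8 groups; points are libraries, red with Dexa and dark without, and bars are mean ± SD (n = 3). The Dexa libraries of Pdk4 (29.5 to 39.1 CPM) and Glul (45.6 to 59.7 CPM) lie above every library without Dexa, and those of Pdk1, Pdk2 and Pdk3 lie close to the others.

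Pdk4, the fasting-responsive kinase, was at 3.50, 2.82 and 3.54 CPM in the 3 siCTRL DMSO libraries and at 32.0, 35.8 and 37.3 CPM with Dexa. In siCTRL KL001 it went from 3.42, 3.66 and 3.71 CPM to 36.3, 37.0 and 37.1 CPM. In siCop1 DMSO the libraries were at 2.46, 2.57 and 1.77 CPM without and 29.7, 31.6 and 29.5 CPM with Dexa, and in siCop1 KL001 at 3.00, 3.59 and 3.85 CPM without and 35.7, 39.1 and 37.2 CPM with Dexa. The 2 sets of libraries were far apart in every background. The log2 fold changes were 3.41 ± 0.09 (SE) in siCTRL DMSO, 3.35 ± 0.09 in siCTRL KL001, 3.73 ± 0.09 in siCop1 DMSO and 3.42 ± 0.09 in siCop1 KL001, with adjusted p from 1.77e-23 to 3.14e-23 (edgeR, Benjamini-Hochberg). Ordered from the highest log2 fold change among the 14772 tested genes, Pdk4 stood at places 29, 33, 20 and 30 in these 4 comparisons. Without Dexa the Pdk4 values rest on 44 to 97 counts per library and with Dexa on 733 to 1011, so its level without Dexa is the least precise of the 5 genes.

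Glul, the glutamine-forming enzyme, was at 11.002, 11.5 and 11.003 CPM in siCTRL DMSO and at 59.7, 57.2 and 56.3 CPM with Dexa. In siCTRL KL001 the libraries were at 9.48, 10.5 and 9.05 CPM without and 54.9, 53.2 and 53.1 CPM with Dexa. In siCop1 DMSO they were at 14.4, 16.1 and 14.5 CPM without and 51.9, 51.0 and 52.5 CPM with Dexa, and in siCop1 KL001 at 13.3, 14.9 and 15.1 CPM without and 52.1, 45.6 and 49.4 CPM with Dexa. The siCop1 libraries thus started higher and ended lower than the siCTRL libraries. The log2 fold changes with Dexa were 2.37 ± 0.06 (SE) in siCTRL DMSO and 2.48 ± 0.06 in siCTRL KL001, against 1.79 ± 0.06 in siCop1 DMSO and 1.76 ± 0.06 in siCop1 KL001 (adjusted p 1.26e-20 or lower, edgeR, Benjamini-Hochberg). Glul stood at places 73, 74, 152 and 144 from the highest of the 14772 genes. Without the 3 replicate 2 libraries high in heart muscle markers, the Dexa effects in siCTRL DMSO and siCTRL KL001 were 3.40 and 3.37 for Pdk4 and 2.39 and 2.56 for Glul. In siCTRL DMSO this leaves the markers high in the arm without Dexa alone, at 19.3 to 62.5 CPM, so there the markers and Dexa cannot be told apart.

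The remaining kinases gave no called change with Dexa in any background. Pdk1 had log2 fold changes of 0.09, 0.09, 0.10 and 0.07 in the 4 backgrounds (siCTRL DMSO, siCTRL KL001, siCop1 DMSO, siCop1 KL001; lowest adjusted p 0.122, edgeR). Its 95% intervals reached at most 0.19, which bounds any rise well below those of Pdk4 and Glul. The Pdk1 call was sensitive to single libraries: it was 0.13 (adjusted p 0.0479, edgeR) in siCTRL DMSO without replicate 2 of siCTRL DMSO Dexa, one of the libraries with high heart muscle markers (which leaves them high in the arm without Dexa alone), 0.14 (0.0388) in siCTRL KL001 without replicate 2 of siCTRL KL001 Dexa, and 0.14 (0.0475) in siCop1 DMSO without replicate 3 of siCop1 DMSO. Pdk2 had values of 0.11, -0.04, 0.07 and 0.13 (lowest adjusted p 0.117) and Pdk3 of 0.05, 0.00, 0.02 and 0.00 (lowest adjusted p 0.448), with 95% intervals within -0.16 to 0.26 for Pdk2 and within -0.09 to 0.12 for Pdk3.

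**Figure D2:**
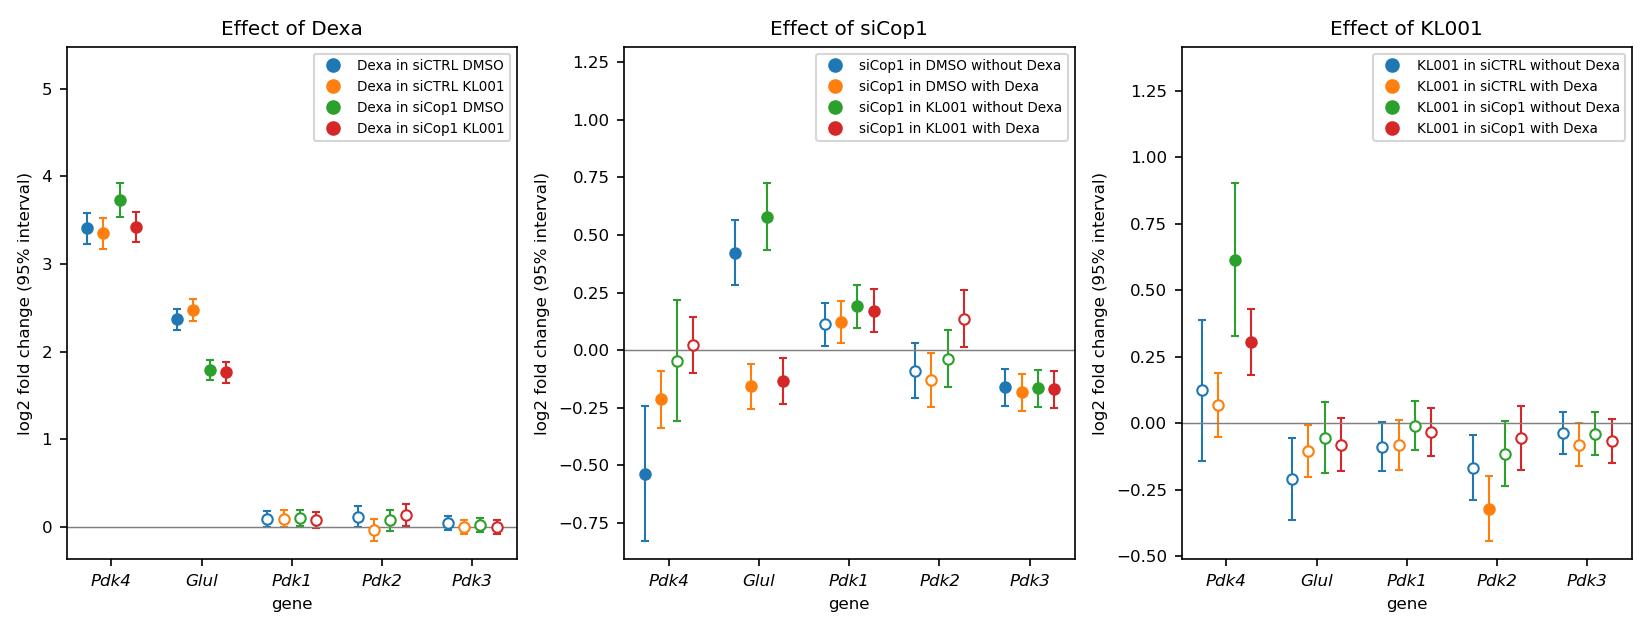
Log2 fold change of each gene (vertical axis) with its 95% interval for Dexa, siCop1 and KL001, each within the 4 combinations of the other factors; filled points have an adjusted p below 0.05 in edgeR's quasi-likelihood test. Pdk4 and Glul stand apart under Dexa (1.76 to 3.73), Glul lies above 0 without Dexa and below 0 with Dexa under siCop1, and Pdk3 lies below 0 in all 4 siCop1 comparisons. The vertical scales differ between the panels.

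Levels of different genes were set side by side per length of annotated exons. Length does not correct for reads shared with related sequences, whose counting is not given, so an order between genes is approximate. In siCTRL DMSO that order was Pdk3 at 30.95 ± 0.61 CPM per kb (SD, n = 3), Pdk2 at 12.5 ± 0.54, Pdk1 at 8.51 ± 0.25, Glul at 4.004 ± 0.11 and Pdk4 at 0.943 ± 0.116. The library ranges of neighbours in that order did not overlap. With Dexa, Pdk3 was still highest at 31.9 ± 1.7 CPM per kb, followed by Glul at 20.7 ± 0.63, Pdk2 at 13.5 ± 0.47, Pdk4 at 10.1 ± 0.79 and Pdk1 at 9.03 ± 0.46. The ranges of the last 2 overlapped, Pdk4 at 9.19 to 10.7 and Pdk1 at 8.58 to 9.49 CPM per kb. In siCop1 DMSO with Dexa these 2 stood in the reverse order, with Pdk1 at 9.84 ± 0.20 and Pdk4 at 8.68 ± 0.34 CPM per kb, and their ranges did not overlap.

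Counted as reads, Pdk4 was 2.33 ± 0.27% of the summed counts of the 4 kinases in siCTRL DMSO (SD, n = 3) and 19.5 ± 1.1% with Dexa. Its share went from 2.68 to 21.7% in siCTRL KL001, from 1.68 to 17.9% in siCop1 DMSO and from 2.63 to 21.9% in siCop1 KL001. Pdk3, the most abundant kinase per length, made up 46.5% in siCTRL DMSO and 37.5% with Dexa, while its own level was not called different. The summed level of the 4 kinases was 141 ± 1.0 CPM in siCTRL DMSO and 180 ± 7.4 CPM with Dexa, and the libraries of the pair did not overlap (139.8 to 141.7 against 175.5 to 188.3 CPM).

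**Figure D3:**
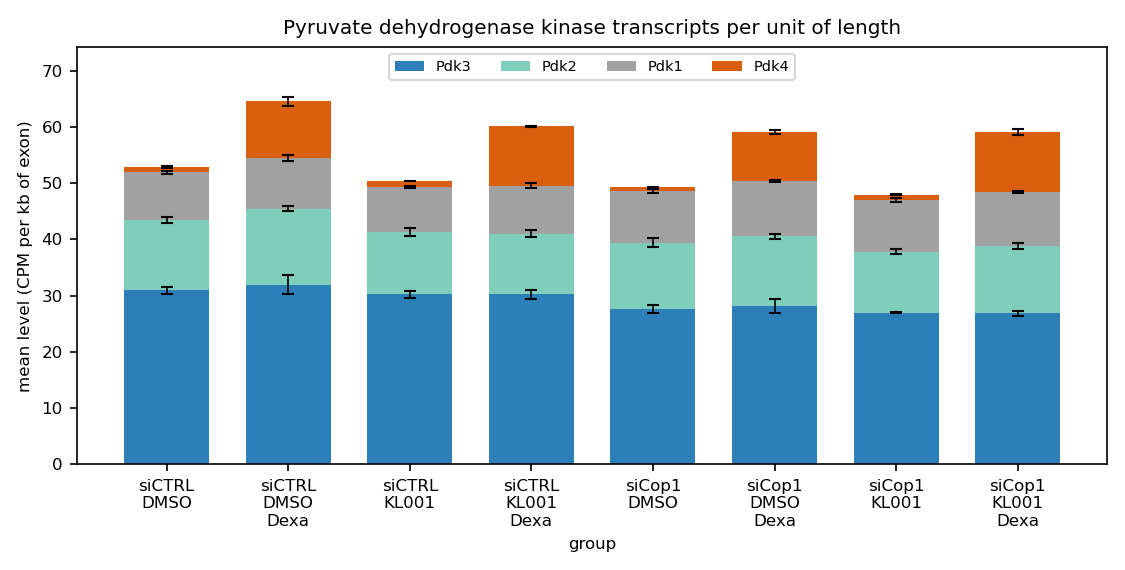
Mean level of the 4 kinases in CPM per kb of annotated exon, stacked, in the 8 groups (n = 3 each); the error bar on each block is the SD of that gene. Pdk4 is the thin top block without Dexa (0.65 to 1.03 CPM per kb) and a block of 8.68 to 10.7 CPM per kb with Dexa, while Pdk3 is the largest block in every group.

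With siCop1, Glul was higher without Dexa and lower with it, Pdk3 was at 0.881 to 0.895 times its siCTRL level in all 4 comparisons, and Pdk4 was lower in DMSO. Of the 5 genes, 3 were called in DMSO without Dexa (29.4% of all tested genes were called there), 4 in DMSO with Dexa (31.1%), and in KL001 3 without Dexa (32.7%) and 3 with it (30.1%). Heart muscle markers moved with this contrast, from sums of up to 93.4 CPM in siCTRL to at most 4.94 CPM in siCop1. In DMSO without Dexa all 3 siCTRL libraries carried them and their part was not tested. Each of the other 3 comparisons held 1 such siCTRL library, a replicate 2. Values with those 3 libraries left out of the fit are given beside the called results of the 5 genes there, except Pdk1 in KL001 without Dexa. For the other genes and the gene lists described further on, the part of these markers in the siCop1 results was not tested.

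Glul rose with siCop1 in DMSO without Dexa by 0.42 ± 0.07 (log2, SE, adjusted p 1.8e-05, edgeR, Benjamini-Hochberg), from 11.002 to 11.5 CPM in siCTRL to 14.4 to 16.1 CPM in siCop1. In KL001 without Dexa it rose by 0.58 ± 0.07 (adjusted p 1.83e-07, edgeR), and by 0.65 without the libraries high in heart muscle markers. With Dexa it fell by 0.16 ± 0.05 in DMSO (adjusted p 0.0124, edgeR), and by 0.17 without those libraries. In KL001 with Dexa it fell by 0.13 ± 0.05 (adjusted p 0.0382, edgeR), and by 0.15 without them (0.0401). That last call did not hold under DESeq2 (adjusted p 0.0823), and it was lost when any 1 of 5 of its 6 libraries was left out: siCTRL KL001 Dexa replicates 1, 2 and 3 (adjusted p 0.126, 0.0537 and 0.0559, edgeR) and siCop1 KL001 Dexa replicates 2 and 3 (0.270 and 0.0659). The value ranged from -0.18 to -0.08 over the 6 omissions. Glul libraries of the siCTRL and siCop1 groups did not overlap in any of the 4 comparisons, as was the case for 42.7%, 43.5%, 39.5% and 45.3% of tested genes.

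The difference between these Dexa responses passed the test of the interaction itself. In DMSO the log2 response of Glul to Dexa was lower by 0.58 in siCop1 than in siCTRL (interaction -0.58 ± 0.08, SE, 95% interval -0.75 to -0.41, adjusted p 1.62e-04, edgeR's quasi-likelihood test), and in KL001 by 0.71 (-0.71 ± 0.09, interval -0.89 to -0.54, adjusted p 8.24e-06). Glul was the 1 gene of the 5 called in each, where 0.67% and 0.562% of tested genes were called. Over the 12 omissions of 1 library the values ran from -0.61 to -0.53 in DMSO and from -0.77 to -0.66 in KL001. Without the 3 libraries high in heart muscle markers they were -0.60 and -0.80. The DMSO value still includes the siCTRL DMSO libraries without Dexa, all of which carry the markers (19.3 to 62.5 CPM), and their part in it was not tested. Among the glucocorticoid targets, Fkbp5 had interactions of -0.76 ± 0.05 in DMSO and -0.64 ± 0.05 in KL001 (adjusted p 2.06e-11 and 1.01e-09, edgeR), while Per1 was at 0.00 in both and Tsc22d3 at 0.11 in both (lowest adjusted p 0.439). Pdk4 had a value of 0.32 ± 0.16 in DMSO (adjusted p 0.644) and 0.07 ± 0.14 in KL001 (0.967), and neither was called. Both 95% intervals for Pdk4 (0.00 to 0.64 and -0.22 to 0.36) lie above those for Glul.

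Pdk3, the most abundant kinase per length, was at 64.1, 65.5 and 66.7 CPM in siCTRL DMSO and at 60.1, 58.6 and 56.9 CPM in siCop1 DMSO. With Dexa these were 65.2, 65.7 and 71.7 CPM against 62.2, 57.1 and 59.2 CPM. In KL001 the siCTRL libraries were at 62.8, 65.3 and 63.6 CPM and the siCop1 libraries at 57.1, 57.2 and 56.7 CPM, and with Dexa at 65.0, 64.7 and 62.0 CPM against 56.6, 56.1 and 57.7 CPM. Each siCop1 library was below each siCTRL library of its comparison. Libraries did not overlap for 42.7%, 43.5%, 39.5% and 45.3% of tested genes in these comparisons. The log2 fold changes were -0.16, -0.18, -0.17 and -0.17 (SE 0.04 each, adjusted p 5.11e-04 to 0.00193, edgeR, Benjamini-Hochberg). Without the 3 siCTRL replicate 2 libraries with high heart muscle markers they were -0.21, -0.14 and -0.17 in DMSO Dexa, KL001 and KL001 Dexa, and all 3 kept an adjusted p below 0.05 (0.0198 at most).

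Pdk1, the hypoxia-linked kinase, was at 45.0, 44.7 and 42.7 CPM in siCTRL DMSO and at 46.4, 46.5 and 50.3 CPM in siCop1 DMSO. The libraries did not overlap, as for 42.7% of tested genes, and the difference of 0.11 ± 0.04 (log2, SE) was not called (adjusted p 0.0605, edgeR). In KL001 the values were 41.9, 40.3 and 42.4 CPM in siCTRL and 49.6, 45.9 and 46.8 CPM in siCop1, a rise of 0.19 ± 0.05 (adjusted p 0.00148, edgeR), and with Dexa as well, from 44.9, 41.9 and 46.0 CPM to 50.3, 50.3 and 48.9 CPM, Pdk1 rose by 0.17 ± 0.05 (adjusted p 0.00451, edgeR). The latter was 0.13 without siCTRL KL001 Dexa replicate 2 (adjusted p 0.0526, edgeR) and 0.13 without all 3 libraries high in heart muscle markers (0.0392). In DMSO with Dexa the libraries were at 46.7, 44.5 and 49.2 CPM in siCTRL and 52.2, 50.4 and 50.5 CPM in siCop1. The rise was 0.12 ± 0.04 (adjusted p 0.0351, edgeR), and the call depended on the libraries: it was lost without siCTRL DMSO Dexa replicate 1 or 2 (adjusted p 0.106 and 0.217) or any of the 3 siCop1 DMSO Dexa replicates (0.145, 0.0550 and 0.0601), under DESeq2 (0.0572) and without the filter on low counts (0.1001). Without all 3 siCTRL libraries high in heart muscle markers that rise was 0.08 (adjusted p 0.186, edgeR).

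Pdk4 fell with siCop1 in DMSO by 0.54 ± 0.14 without Dexa (log2, SE, adjusted p 0.0046) and by 0.21 ± 0.06 with Dexa (adjusted p 0.00751, edgeR, Benjamini-Hochberg). The siCop1 libraries, at 1.77 to 2.57 CPM without and 29.5 to 31.6 CPM with Dexa, lay below the siCTRL libraries in both. Libraries did not overlap for 42.7% and 43.5% of tested genes there. The call with Dexa was lost without siCTRL DMSO Dexa replicate 3, where the value was -0.17 (adjusted p 0.0592). Without the 3 libraries high in heart muscle markers it was -0.20 (0.0259). In KL001 the differences were -0.05 ± 0.13 and 0.02 ± 0.06 (adjusted p 0.828 and 0.817), with 95% intervals of -0.31 to 0.22 and -0.10 to 0.15. Pdk2 was not called in any of the 4 siCop1 comparisons, with values of -0.09, -0.13, -0.04 and 0.14 (lowest adjusted p 0.0905).

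KL001 gave few calls among the 5 genes. None was called in siCTRL without Dexa by edgeR or DESeq2, although 2 had an unadjusted p below 0.05, and 6.73% of tested genes were called there, while 1 was called in siCTRL with Dexa (10.6%) and 1 in siCop1 both without Dexa (4.09%) and with it (5.46%). The called genes were Pdk2 in the siCTRL background and Pdk4 in the siCop1 background.

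Pdk2, the widely expressed kinase, was at 31.6, 29.6 and 30.1 CPM in siCTRL DMSO Dexa and at 25.2, 22.7 and 25.1 CPM in siCTRL KL001 Dexa. The fall was 0.32 ± 0.06 (log2, SE, adjusted p 4.88e-04, edgeR, Benjamini-Hochberg). Replicate 2 of both groups was high in heart muscle markers, and without these libraries the value was -0.29 (adjusted p 0.00796). Without Dexa the libraries were at 29.0, 26.7 and 28.5 CPM in DMSO and 26.4, 25.5 and 23.2 CPM in KL001, and the difference of -0.17 ± 0.06 was not called (adjusted p 0.0943), although it was at -0.21 (0.0475) without siCTRL KL001 replicate 1. In siCop1 the differences were -0.11 ± 0.06 without and -0.06 ± 0.06 with Dexa (adjusted p 0.388 and 0.729). The KL001 effects on Pdk2 in siCop1 and siCTRL with Dexa differed by 0.27 ± 0.08, and this interaction did not pass (adjusted p 0.354), so a difference between the siRNA backgrounds was not shown.

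Pdk4 rose with KL001 in siCop1 without Dexa, from 1.77 to 2.57 CPM in DMSO to 3.00 to 3.85 CPM, by 0.61 ± 0.14 (log2, SE, adjusted p 0.00677, edgeR's quasi-likelihood test). That call was lost without siCop1 DMSO replicate 3 (0.47, adjusted p 0.0831) or siCop1 KL001 replicate 3 (0.54, 0.0595). With Dexa it rose from 29.5 to 31.6 CPM to 35.7 to 39.1 CPM, by 0.30 ± 0.06 (adjusted p 0.00133, edgeR). Both rises use the same siCop1 DMSO libraries as the falls of Pdk4 with siCop1 in DMSO, so rises and falls are not independent results. In siCTRL the Pdk4 libraries of DMSO and KL001 overlapped both without Dexa (0.12 ± 0.13, adjusted p 0.681) and with Dexa (0.07 ± 0.06, adjusted p 0.539). The differences between the siRNA backgrounds, 0.49 ± 0.19 without and 0.24 ± 0.08 with Dexa, did not pass (adjusted p 0.677 and 0.497). These interactions called 0% and 0.0677% of tested genes in edgeR. For the first, 982 genes had an unadjusted p below 0.05, and DESeq2 called 12.

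Glul, Pdk1 and Pdk3 were not called with KL001 in any background. For Glul the log2 differences were -0.21 ± 0.07 in siCTRL without Dexa (adjusted p 0.0968, edgeR), -0.10 ± 0.05 with Dexa (0.182), -0.05 ± 0.07 in siCop1 without Dexa (0.797) and -0.08 ± 0.05 with Dexa (0.448). Pdk1 lay between -0.09 and -0.01 and Pdk3 between -0.08 and -0.03 in the 4 comparisons. No gene of the 5 passed the interaction of KL001 with Dexa, for which edgeR called 0% of tested genes in siCTRL and 0.0677% in siCop1. In siCTRL 888 genes had an unadjusted p below 0.05, none of the 5 among them, and DESeq2 called 2. The log2 response of Pdk4 to Dexa was lower by 0.31 under KL001 in siCop1 (-0.31 ± 0.15, adjusted p 1).

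The kinases act on the pyruvate dehydrogenase complex, and its phosphatases undo their work. Of 8 genes for the complex and its phosphatase, 1 rose and none fell with Dexa in siCTRL DMSO, where 26.8% of all tested genes were called, with a median log2 change of 0.06 against -0.01 over all tested genes. That gene was Pdp1, the catalytic subunit of a phosphatase that reactivates the complex. It rose by 1.66 ± 0.04 in siCTRL DMSO, from 39.8 ± 1.0 to 126 ± 6.8 CPM (SD, n = 3), and by 1.69, 1.42 and 1.62 in siCTRL KL001, siCop1 DMSO and siCop1 KL001. In DMSO the interaction of siCop1 with Dexa was called lower for Pdp1, 1 of the 8 genes (0.67% of tested genes called). In KL001 it was called for none of the 8 (0.562%). The 5 genes of the complex itself, Pdha1, Pdhb, Dlat, Dld and Pdhx, were not called with Dexa in siCTRL DMSO, siCTRL KL001 or siCop1 DMSO. In siCop1 KL001, where 24.5% of all tested genes were called, Pdha1 was called higher with Dexa, from 242 ± 3.6 to 255 ± 3.3 CPM. With siCop1, Pdha1, the E1 alpha subunit that the kinases phosphorylate, fell in all 4 comparisons, by 0.20 and 0.22 in DMSO and by 0.18 and 0.16 in KL001 (without and with Dexa; SE 0.03 each). Pdp2, another phosphatase subunit, rose with siCop1 in DMSO without Dexa (0.28 ± 0.09) and in KL001 (0.37 ± 0.09 without and 0.36 ± 0.09 with Dexa). None of the 8 was called by edgeR with KL001 in any of the 4 comparisons, and 1, 0, 1 and 2 of them had an unadjusted p below 0.05 (siCTRL without and with Dexa, then siCop1).

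Among 21 genes that supply or use pyruvate, 4 rose and none fell with Dexa in siCTRL DMSO, a share below the 26.8% of all tested genes called there, with a median of 0.04. The highest was Pcx, pyruvate carboxylase, which turns pyruvate into oxaloacetate, at 1.31 ± 0.04, from 66.9 ± 0.9 to 165 ± 6.9 CPM. Slc2a1, a glucose transporter, rose by 0.44 ± 0.04 and Pgk1, a glycolytic enzyme, by 0.31 ± 0.09. Pcx and Slc2a1 rose with Dexa in the other 3 backgrounds too, Pcx by 1.22 to 1.32 and Slc2a1 by 0.28 to 0.46. With siCop1 in DMSO without Dexa 3 rose and 3 fell, a share close to the 29.4% of all tested genes called there, with a median of -0.01. Of these, Pfkp, a phosphofructokinase, fell by 0.86 ± 0.07, while Slc16a3, a lactate exporter, rose by 0.49 ± 0.10 and Hk2, a hexokinase, by 0.41 ± 0.06. With KL001 in siCTRL without Dexa 7 rose and none fell, where 3.22% of all tested genes were called higher and 6.73% in either direction, with a median of 0.05, led by Hk2 at 0.19 ± 0.06, Eno1 at 0.16 ± 0.04 and Slc16a1 at 0.14 ± 0.04. Heart muscle markers were high in all 3 siCTRL DMSO libraries and in 1 of the 3 siCTRL KL001 libraries, and their part in this count was not tested. With only the groups compared in the fit, 225 of all tested genes were called here, against 994 in the fit on all groups. The list was not recounted in that smaller fit.

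Of 22 genes that make, use or carry glutamine and glutamate, 21 were tested, and Lgsn was not. With Dexa in siCTRL DMSO 4 rose and 5 fell, where 26.8% of all tested genes were called, with a median of 0.01. Gclc, which uses glutamate for glutathione, rose by 1.05 ± 0.04, from 36.2 ± 0.8 to 75.0 ± 0.6 CPM, and Slc1a5, a glutamine transporter, by 0.42 ± 0.04, while Slc1a3, a glutamate transporter, fell by 0.55 ± 0.03. The interaction of siCop1 with Dexa was called higher for Slc1a3 in both DMSO and KL001. It was the 1 gene of the 21 called in each, where 0.67% and 0.562% of tested genes were called. With siCop1 the list leaned lower in each comparison: 9 of 21 fell and 1 rose in DMSO without Dexa, 10 fell and 2 rose with Dexa, 9 fell and 1 rose in KL001 without Dexa, and 10 fell and 1 rose with Dexa. The share of all tested genes called lower was 16.6%, 16.7%, 18.2% and 16.3%. The medians were -0.15, -0.07, -0.08 and -0.11, against -0.01 to 0.00 over all tested genes. In DMSO without Dexa, where Glul rose, the amino acid transporters Slc7a5, Slc1a5 and Slc3a2 fell by 0.85 ± 0.03, 0.73 ± 0.04 and 0.60 ± 0.03. With KL001 the list leaned higher, with 8 and 10 of 21 called higher and none lower in siCTRL without and with Dexa (3.22% and 4.98% of all tested genes were called higher), and 5 and 8 higher with 0 and 1 lower in siCop1 (1.77% and 2.5%). Slc7a11, the cystine and glutamate exchanger, had the highest change each time, at 0.30, 0.49, 0.44 and 0.49. With only the groups compared in the fit, 225 genes were called with KL001 in siCTRL without Dexa, against 994. In siCop1 the calls moved the other way, to 950 from 604 without Dexa and to 1435 from 807 with Dexa. This list was not recounted in those smaller fits.

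**Figure D4:**
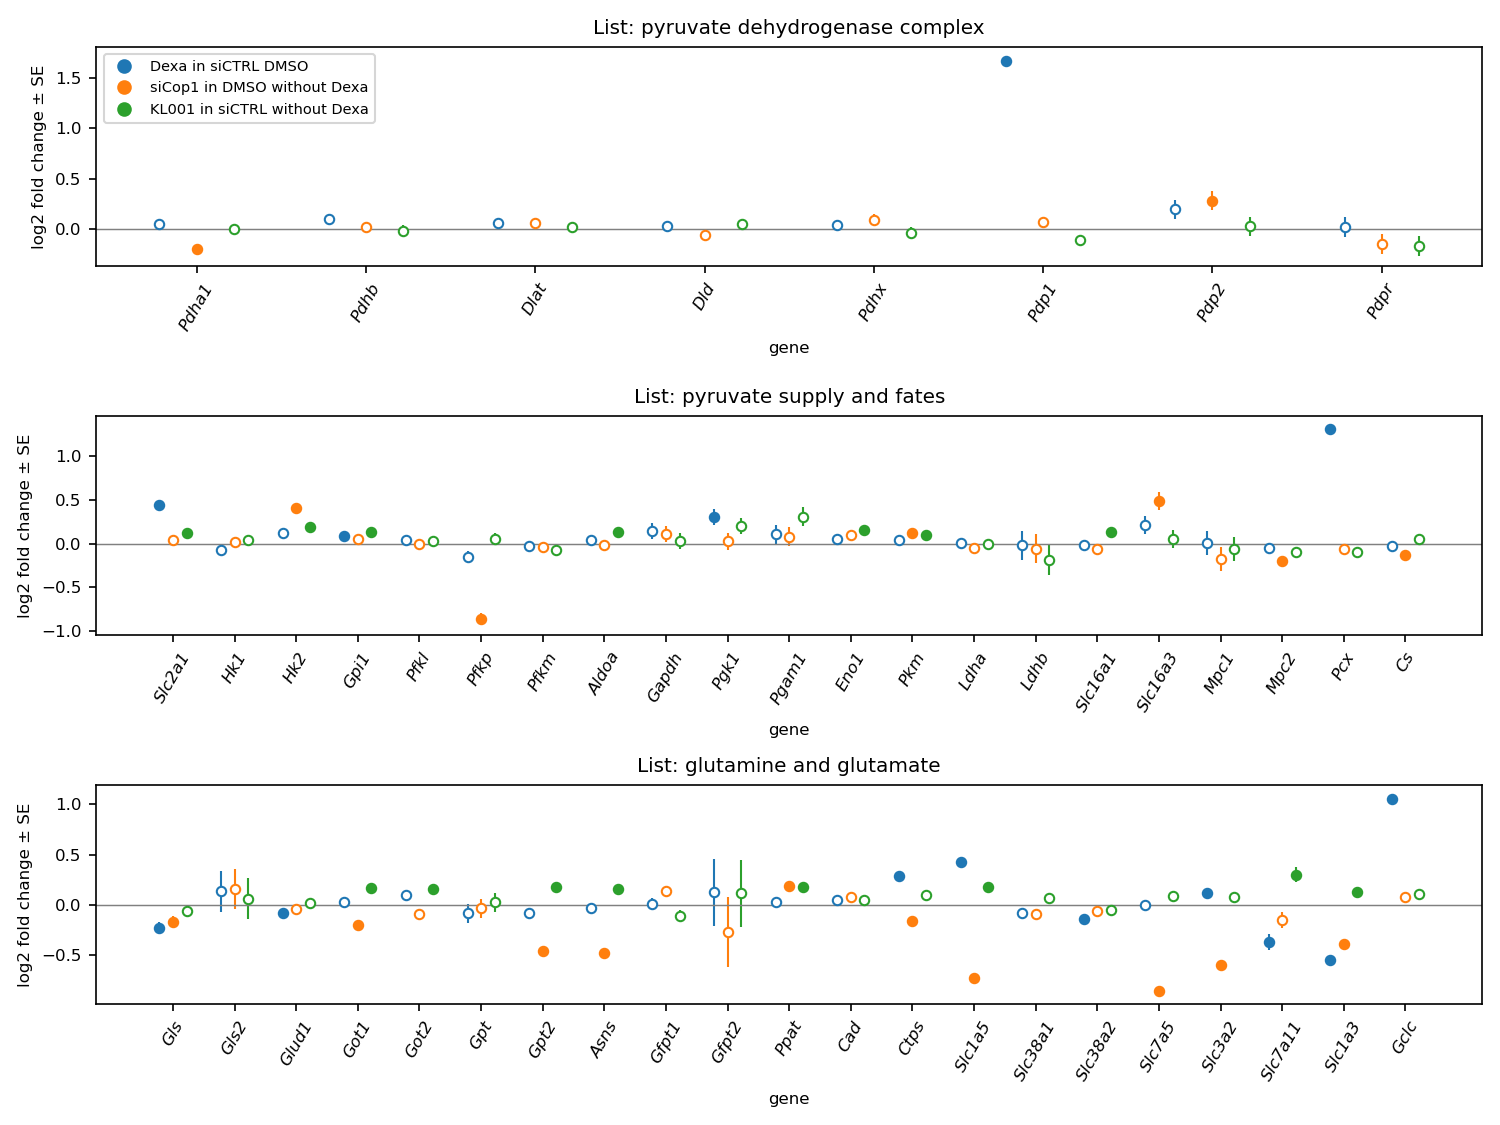
Log2 fold change ± SE of the tested genes of 3 lists (pyruvate dehydrogenase complex, pyruvate supply and fates, glutamine and glutamate) for Dexa in siCTRL DMSO, siCop1 in DMSO without Dexa and KL001 in siCTRL without Dexa; filled points have an adjusted p below 0.05 in edgeR's quasi-likelihood test. Pdp1, Pcx and Gclc stand out with Dexa (1.66, 1.31 and 1.05), and Slc7a5, Slc1a5 and Pfkp are the lowest with siCop1 (-0.85, -0.73 and -0.86).

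Other genes known to respond to the factors that act on Pdk4 and Pdk1 did not follow one direction. Of 17 fatty acid oxidation and PPAR target genes 15 passed the filter on low counts and were tested, and with Dexa in siCTRL DMSO 5 fell and none rose, with a median of -0.14, where 26.8% of all tested genes were called in either direction. In siCTRL KL001, siCop1 DMSO and siCop1 KL001 the medians were -0.09, 0.02 and 0.04. There 4 fell each time and 0, 0 and 1 rose (26.8%, 23.7% and 24.5% of all tested genes called). Heart muscle markers were high in every siCTRL DMSO library without Dexa. Their part in the list results for Dexa in siCTRL DMSO was not tested. The PPAR target Angptl4 fell by 0.63 ± 0.05, Cpt1a, the entry enzyme of fatty acid oxidation, by 0.34 ± 0.04 and Acot2 by 0.33 ± 0.06. Angptl4 rose with KL001 by 0.64 ± 0.05 in siCTRL without Dexa. Of 14 targets of hypoxia-inducible factor 5 rose and 2 fell with Dexa in siCTRL DMSO (26.8% of all tested genes called), with a median of 0.06, led by Egln3 at 0.99 ± 0.07, Bnip3 at 0.85 ± 0.06 and Adm at 0.71 ± 0.05. With siCop1 in DMSO without Dexa 6 of these 14 fell and 1 rose (29.4% of all tested genes called, 16.6% lower), with a median of -0.05, and Ero1l fell most, by 0.52 ± 0.05, while Pdk1 was not lower in any siCop1 comparison. A list of 16 regulators held transcription factors and cofactors, and also Crbn, Zfp91 and Psmd1, included for turnover of glutamine synthetase protein. Of these 16 genes, 3 rose and 2 fell with Dexa in siCTRL DMSO, a share close to the 26.8% of all tested genes. The FoxO factor gene Foxo3 rose by 1.09 ± 0.05, the glucocorticoid receptor gene Nr3c1 fell by 0.64 ± 0.08 and Foxo1 fell by 0.34 ± 0.04.

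The genes whose 8 group means were most like each gene's were ranked by Pearson correlation of log2 CPM among tested genes with a mean of at least 1 CPM and a range of group means of at least 50% of the gene's own. For Pdk4 these were Fam107a (0.997), Mt2 (0.997) and Il1rn (0.994). Of the 225 candidates 38.2% had a correlation above 0.9, so these 3 stand among many genes that follow Dexa. Mt2, a metallothionein, was at 11.9 ± 0.8 CPM in siCTRL DMSO and 109 ± 8.9 CPM with Dexa (SD, n = 3). For Glul they were Arhgef37 (0.997), Dact1 (0.996) and Mertk (0.996) of 630 candidates, 26.2% of which were above 0.9. Dact1, a Wnt pathway modulator, was at 9.16 ± 0.44 CPM in siCTRL DMSO and 38.8 ± 1.4 with Dexa, and in siCop1 DMSO at 11.3 ± 0.9 and 37.6 ± 2.3 CPM. For Pdk1 the closest were Ube4a, Dnajc12 and Wipi1 (0.992, 0.990 and 0.990), for Pdk3 Mfap1b, Rab2a and Tmem86b (0.996, 0.995 and 0.995) and for Pdk2 Tmed3, Tmem143 and Car11 (0.940, 0.939 and 0.937). The points share their libraries and their scaling, and are only 8. Ranked instead by Spearman correlation over the 24 libraries, 1 of the 3 names was kept for Pdk4 (Mt2) and for Pdk1 (Wipi1) and 0 of 3 for Glul, Pdk2 and Pdk3. Between the 5 genes themselves, Pdk4 and Glul had a correlation of 0.96 over the 8 group means, and the kinases Pdk1 and Pdk3 one of -0.64.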

How the data were processed

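The authors deposited raw read counts per gene symbol for 24 libraries, which were used for every value. Their normalized table was not used. Per the labels' protocols the libraries were stranded mRNA preparations read as single 50-base reads on 3 lanes, pooled, with no lane named per library. The submitters' processing notes list bcl2fastq 1.8.4, STAR 2.4.5a, featureCounts, Subread 1.4.6-p3, DESeq2, Picard 1.126 and the build GRCm38 (mm10), without their roles. How reads shared by paralogs were counted is not given in the sources used here. Of 47480 genes 28837 had a count and 14772 passed filterByExpr (minimum count 10, minimum total 15).

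Counts were scaled with TMM and fitted in R 4.3.3 with edgeR 4.0.16 (quasi-likelihood, robust, two-sided, limma 3.58.1) over the 24 libraries together, with a mean for each of the 8 groups as the model's terms. The fit was tried on simulated counts, drawn with its own dispersions, for Dexa in siCTRL DMSO only. The siCop1, KL001 and interaction comparisons were not simulated. There were 12 simple effects and 6 interactions, each with Benjamini-Hochberg adjustment over all tested genes. SEs come from the fold change and its F statistic. The common biological coefficient of variation was 3.71%. Exonic lengths come from GENCODE vM21 and promoter letters from RefSeq. Alternatives were RLE scaling, no filter, only the groups compared, DESeq2 1.42.0, a replicate block, each library left out and, chosen after seeing the data, the 3 replicate 2 libraries with heart muscle markers left out. Named genes are the 5 genes, up to 3 called genes with the largest change of each list described, Fkbp5, Tsc22d3, Per1 and Rfwd2 as checks, and the 3 most similar genes of each. The genes and the lists were chosen with earlier results of these data known. Marker lists were fibroblast, heart muscle, skeletal muscle, adipocyte, glia, macrophage, endothelial and epithelial. Counting error and the replicate spread limit values of few counts. No replicate pair agreed within sampling noise (chi-square per degree of freedom 1.57 to 8.54).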

Additional observations from a re-analysis of the deposited data

Results flagged for a closer look

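Glul responded to Dexa differently in the 2 siRNA backgrounds, by a test of the difference itself. The interaction of siCop1 with Dexa was -0.58 on the log2 scale in DMSO and -0.71 in KL001 (adjusted p 1.62e-04 and 8.24e-06, edgeR, Benjamini-Hochberg, n = 3 libraries a group). In both compounds Glul was above the siCTRL libraries without Dexa and below them with Dexa. None of the 4 kinases passed either interaction.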

How the results depend on the processing

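Replicate numbers were not treated as pairs, because the labels do not say that a number marks a shared culture or day, although the authors' column names repeat a numbered prefix within each siRNA background. The residuals of same-numbered libraries, taken both within and between the siRNA backgrounds, had a median correlation of 0.01 (-0.29 to 0.46, 19 of 84 pairs over 0.1). For pairs with different numbers the median was -0.0016 (-0.44 to 0.30, 27 of 168 pairs over 0.1). Of the 24 libraries, 13 correlated best with their own number, a hint from the data and not the design. A replicate block changed no call of the 5 genes (Glul siCop1 by Dexa in DMSO -0.58, in KL001 -0.71). That block joined equal numbers across the siRNA backgrounds. A block by column prefix within each background was not tried, so whether such pairing matters was not tested. The Dexa effects on Pdk4 and Glul, the Pdk3 effects of siCop1 and both Glul interactions kept direction and call under every alternative run. Several Pdk1 calls changed: siCop1 in DMSO without Dexa passed with RLE scaling (0.12, adjusted p 0.0383, edgeR) and with only the groups compared (0.12, 0.0490), siCop1 in DMSO with Dexa was lost without the filter (0.12, 0.1001), with DESeq2 (0.12, 0.0572) and without the heart muscle marker libraries (0.083, 0.186), and Dexa passed in siCop1 DMSO with only the groups compared (0.10, 0.0432) and in siCTRL DMSO without those libraries (0.13, 0.0352), which leaves the markers high in the arm without Dexa alone. Pdk2 with siCop1 in KL001 with Dexa passed with only the groups compared (0.14, 0.0471), and Glul there was lost with DESeq2 (-0.13, 0.0823). Values near 0 changed sign: Pdk1 siCop1 by Dexa in DMSO without the filter (-0.0018) and, without the heart muscle marker libraries, the same value (-0.037), Pdk2 Dexa in siCTRL KL001 (0.032), Pdk1 KL001 by Dexa in siCTRL (-0.010) and Pdk3 siCop1 by KL001 without Dexa (0.014). The cause was not tested. With only the groups compared, the genes called with KL001 were 225 in siCTRL without Dexa (994 in the fit on all groups), 950 in siCop1 without Dexa (604) and 1435 with Dexa (807). Leaving out 1 library gave 653 to 1165 in siCTRL without Dexa, 928 to 1416 in siCTRL with Dexa (1560) and 502 to 611 in siCop1 with Dexa. Counts of interaction calls ranged over the alternatives from 71 to 230 for siCop1 by Dexa in DMSO (99) and 43 to 156 in KL001 (83), 0 to 133 for KL001 by Dexa in siCTRL (0) and 1 to 43 in siCop1 (10), and 0 to 61 for siCop1 by KL001 without Dexa (0) and 2 to 59 with it (10).

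Leaving out each library in turn also changed a call or the sign of a small value in the following results, whose ranges are given with the comparison. For Pdk1 the log2 ranges were 0.059 to 0.13 (Dexa in siCTRL DMSO), -0.038 to 0.049 (siCop1 by Dexa in DMSO), -0.028 to 0.045 (KL001 by Dexa in siCTRL), 0.083 to 0.16 (siCop1 in DMSO with Dexa), 0.071 to 0.14 (Dexa in siCTRL KL001), -0.071 to 0.012 (siCop1 by Dexa in KL001), 0.13 to 0.19 (siCop1 in KL001 with Dexa), 0.077 to 0.14 (Dexa in siCop1 DMSO), -0.042 to 0.029 (KL001 in siCop1 without Dexa) and -0.063 to 0.0088 (KL001 by Dexa in siCop1). For Pdk2 the log2 ranges were -0.21 to -0.11 (KL001 in siCTRL without Dexa), -0.084 to 0.018 (siCop1 by Dexa in DMSO), -3.5e-05 to 0.11 (siCop1 by KL001 without Dexa), -0.092 to 0.016 (Dexa in siCTRL KL001), -0.089 to 0.0042 (siCop1 in KL001 without Dexa) and -0.00062 to 0.10 (KL001 by Dexa in siCop1). For Pdk3 the log2 ranges were -0.069 to 0.0095 (siCop1 by Dexa in DMSO), -0.076 to 0.00016 (KL001 by Dexa in siCTRL), -0.025 to 0.014 (siCop1 by KL001 without Dexa), -0.032 to 0.047 (siCop1 by KL001 with Dexa), -0.013 to 0.033 (Dexa in siCTRL KL001), -0.040 to 0.0086 (siCop1 by Dexa in KL001), -0.011 to 0.051 (Dexa in siCop1 DMSO), -0.056 to 0.0033 (KL001 by Dexa in siCop1) and -0.016 to 0.0049 (Dexa in siCop1 KL001). For Pdk4 the log2 ranges were -0.12 to 0.037 (KL001 by Dexa in siCTRL), -0.29 to -0.17 (siCop1 in DMSO with Dexa), -0.12 to 0.048 (siCop1 in KL001 without Dexa), -0.025 to 0.15 (siCop1 by Dexa in KL001), -0.014 to 0.055 (siCop1 in KL001 with Dexa) and 0.47 to 0.71 (KL001 in siCop1 without Dexa). For Glul the log2 ranges were -0.023 to 0.075 (siCop1 by KL001 with Dexa), -0.18 to -0.082 (siCop1 in KL001 with Dexa), -0.089 to 0.0024 (KL001 in siCop1 without Dexa) and -0.083 to 0.025 (KL001 by Dexa in siCop1).

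At 44 to 97 counts per library Pdk4 without Dexa is the least deeply measured value. The upper 95% limits of the Dexa effect were at most 0.19 for Pdk1, 0.26 for Pdk2 and 0.12 for Pdk3.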
